A study of Drosophila melanogaster with 7 samples.

Results

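Acetylcholine is the main fast excitatory transmitter of the insect central nervous system, and 7 genes that make it, move it, break it down or bind it at muscarinic receptors were followed in cultured Drosophila larval neurons. They were ChAT, VAChT, ChT, Ace, mAChR-A, mAChR-B and mAChR-C, taken by symbol from the 17753 genes of the count table. All samples were of the same condition, the control: primary neuron cultures from w1118 third-instar larvae. Each came from 3 dissected central nervous systems, and the study's figure caption gives 7 days in vitro for the sequenced control cultures. 7 such cultures were sequenced as bulk RNA, and no other condition was analysed here. No comparison between groups could therefore be made, and the values describe how the genes are expressed and how they vary between cultures. The animals in a culture were pooled, and each culture holds every cell type that attached, so that fewer cells of a type and less RNA per cell cannot be told apart. The labels number the cultures as separate but say nothing of separate preparation days, so every SD and p-value measures only the spread between these libraries.

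Choline acetyltransferase (ChAT) makes acetylcholine from choline and acetyl-CoA, and the vesicular transporter VAChT loads it into synaptic vesicles. After release, acetylcholinesterase (Ace) splits it in the synaptic cleft, and the choline transporter ChT takes the choline back into the terminal. The receptors fall into nicotinic ion channels and muscarinic G protein-coupled receptors, of which Drosophila has 3: mAChR-A couples to Gq, mAChR-B to Gi, and mAChR-C is the least studied. Neurons that release acetylcholine express ChAT, VAChT and ChT together, whereas Ace and the receptors are also made by cells that receive it.

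The 7 libraries held 21178515 to 33891136 counts and are named here by that total in units of 1000000 counts, from library 21.2 to library 33.9. Values are counts per 1000000 of the library total (CPM). Detection required 10 counts or more in each of the 7 libraries, which 53.4% of all genes reached. The neuron markers were high throughout, with a summed level of 6135 to 7886 CPM over 8 of 8 detected genes, including elav at 700 CPM on average. Glial markers (8 of 8 detected) summed to 138 to 212 CPM, neuroblast markers (8 of 8) to 942 to 1806 CPM, nearly all of it pros, and hemocyte markers (3 of 6 detected, He and eater at 0 in at least 1 library) to 29.9 to 66.9 CPM. On average pros was at 1292 CPM, and the other neuroblast markers lay between 3.66 CPM (dpn) and 30.9 CPM (insc). Library 26.8 had the highest sums of the hemocyte and glial markers, with 35.1 and 181 CPM in the next libraries. It was also highest for 3 further lists. Its photoreceptor genes (10 of 11 detected) summed to 1359 CPM, against 109 to 340 CPM in the other 6 libraries, and its fat body and yolk genes (5 of 7 detected) to 1318 CPM, against 72.3 to 410 CPM. Its muscle genes (7 of 8 detected) summed to 350 CPM, against 114.6 to 184 CPM. Library 33.9 was next for photoreceptor and for fat body and yolk genes, so these lists varied over several libraries. The part of these RNAs in the values of the cholinergic genes was not tested. The means of ChAT, VAChT and Ace, the relations of VAChT and Ace and the list medians with VAChT are also given without library 26.8.

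ChAT (FBgn0000303) and VAChT (FBgn0270928) are a nested pair on chromosome arm 3R. In dm6 coordinates, ChAT spans 3R:18705501-18732344 on the plus strand, and VAChT spans 3R:18705501-18718916 on the same strand. They share the same first exon of 606 bases, at 3R:18705501-18706106. VAChT then has a single exon of 6492 bases at 3R:18712425-18718916, which lies inside the first intron of ChAT, whose second exon begins at 18723988. ChT (FBgn0038641) lies upstream on that strand, at 3R:18680604-18686739, with 18761 bases and 4 other genes between its end and the start of ChAT. These 4 genes had at most 44 counts in any library, and the whole stretch covers 51741 bases.

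**Figure D1:**
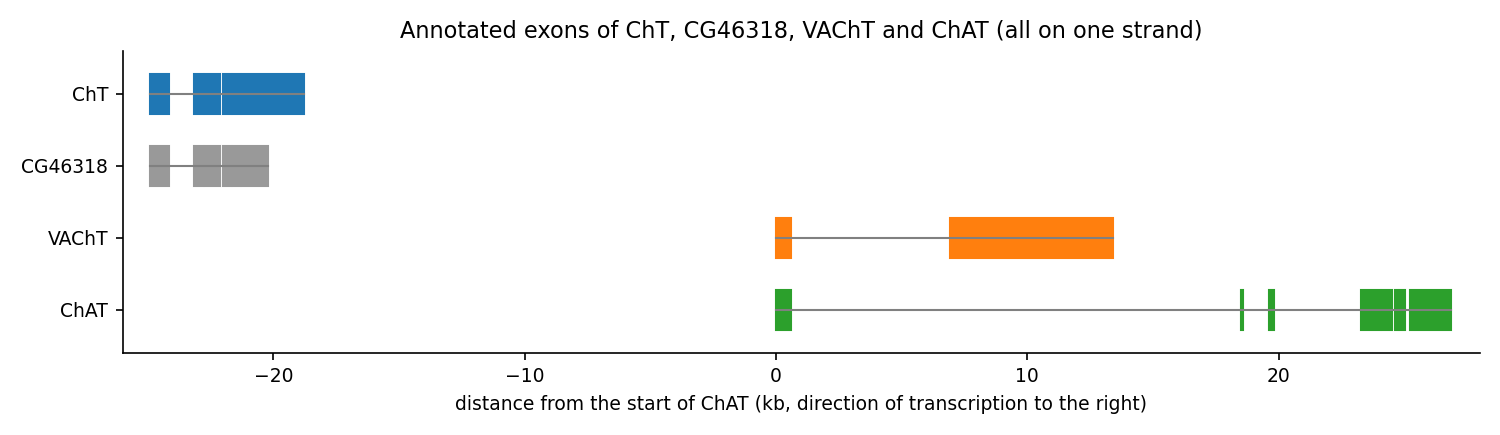
Annotated exons (boxes) and introns (lines) of ChT, CG46318, VAChT and ChAT, placed by distance in kb from the start of ChAT. VAChT and ChAT share the first exon of 606 bases, and CG46318 covers 3299 of the 4748 exon bases of ChT.

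Shared exons bear directly on these counts. CG46318 is a gene model (FBgn0284234) whose 3299 exon bases all lie in exons of ChT, and it was listed at 0 counts in all 7 libraries, although ChT had 389 to 838 counts. The same held across the table. Of 382 genes whose exons lie wholly within exons of other genes on the same strand, 377 (98.7%) were at 0 in all libraries, compared with 17 of 137 genes (12.4%) covered only on the opposite strand and 10.6% of the 12031 genes that share no exon base. Counting therefore took strand into account and left reads in same-strand shared bases out of the covered gene, and whether they were given to the other gene is not stated. For ChT the bases outside CG46318 are 1449, all in the distal part of the longer of its 2 annotated 3′ UTRs (628 and 2077 bases), and for ChAT and VAChT the bases outside the common exon are 3405 and 6492. If shared reads were dropped, all ChT counts come from those 1449 bases of the longer 3′ UTR, which was not tested. That limit holds for every level, spread and correlation of ChT given here. Levels per length are given below on both lengths because of the shared bases.

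ChAT, the enzyme that defines cholinergic neurons, had 13.5, 11.8, 12.3, 19.4, 11.9, 20.3 and 15.4 CPM in libraries 21.2, 25.1, 25.7, 26.8, 28.5, 28.6 and 33.9, with a mean of 14.9 ± 3.56 CPM (SD, n = 7). Libraries 26.8 and 28.6 were the high ones, and the other 5 lay between 11.8 and 15.4 CPM. Leaving out library 26.8 gave 14.2 ± 3.27 CPM.

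VAChT varied most among the detected members. In the same order of libraries it had 88.7, 91.5, 116, 169, 82.6, 171 and 157 CPM, with a mean of 125 ± 39.6 CPM (SD, n = 7). Libraries 26.8, 28.6 and 33.9 were at 157 CPM or above and the other 4 at 116 CPM or below, and the step between them was 46.5% of the whole range. No label gives a batch, so this step could not be set against one, and no within-batch value can be given. Without library 26.8 the mean was 118 ± 37.8 CPM.

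ChT had 18.5, 22.8, 25.3, 26.6, 13.6, 28.2 and 24.7 CPM, in the same order, with a mean of 22.8 ± 5.09 CPM (SD, n = 7). Library 28.5 was the low one, and it was also the lowest for VAChT. Without it the coefficient of variation (CV, the SD as a share of the mean) of ChT was 13.9%, compared with 22.3% over all 7 libraries.

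Ace (FBgn0000024, 3R:13222951-13259517, minus strand), the enzyme that ends the signal, had 102, 91.0, 96.9, 127.6, 88.7, 109.9 and 118 CPM, with a mean of 105 ± 14.3 CPM (SD, n = 7). Library 26.8 was highest and library 28.5 lowest, and without library 26.8 the mean was 101 ± 11.2 CPM. Ace has 3 annotated 3′ UTR lengths between 354 and 5033 bases, the widest choice among the members, and gene counts do not separate them.

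Of the muscarinic receptors, mAChR-A (FBgn0000037, 2R:24378630-24390294, minus strand) had 115.8, 115.2, 117, 118, 109, 149 and 133 CPM, with a mean of 122 ± 13.6 CPM (SD, n = 7). Library 28.6 was high, and 5 of the other 6 libraries lay between 109 and 118 CPM. Without the high library the CV of mAChR-A was 6.58%, compared with 11.1% with it. Its exons overlap CG13578 on the opposite strand over 111 bases, and CG13578 had 7 to 41 counts.

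mAChR-B (FBgn0037546, 3R:8059284-8087049, plus strand) had 71.4, 66.4, 70.6, 66.6, 86.1, 88.5 and 77.7 CPM, with a mean of 75.3 ± 9.06 CPM (SD, n = 7). Here library 28.5 was among the highest, although it was the lowest for VAChT, ChT, Ace and mAChR-A. The CPM ratio of mAChR-A to mAChR-B was 1.62 to 1.78 in 6 libraries and 1.27 in library 28.5.

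mAChR-C (FBgn0029909, X:6831397-6832684, minus strand) did not pass the count minimum. Its counts were 5, 0, 2, 8, 0, 6 and 0 in the same order of libraries, 21 in all. The 3 libraries with no count allow a level of up to 0.119, 0.105 and 0.0885 CPM (3 counts of the library total, for counting error only). Its locus lies within the span of nonC on the other strand, which had 4516 to 6250 counts but shares no exon base with it. Thus 6 of the 7 members were detected, where 53.4% of all genes were, and the same 6 had at least 100 counts in every library.

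**Figure D2:**
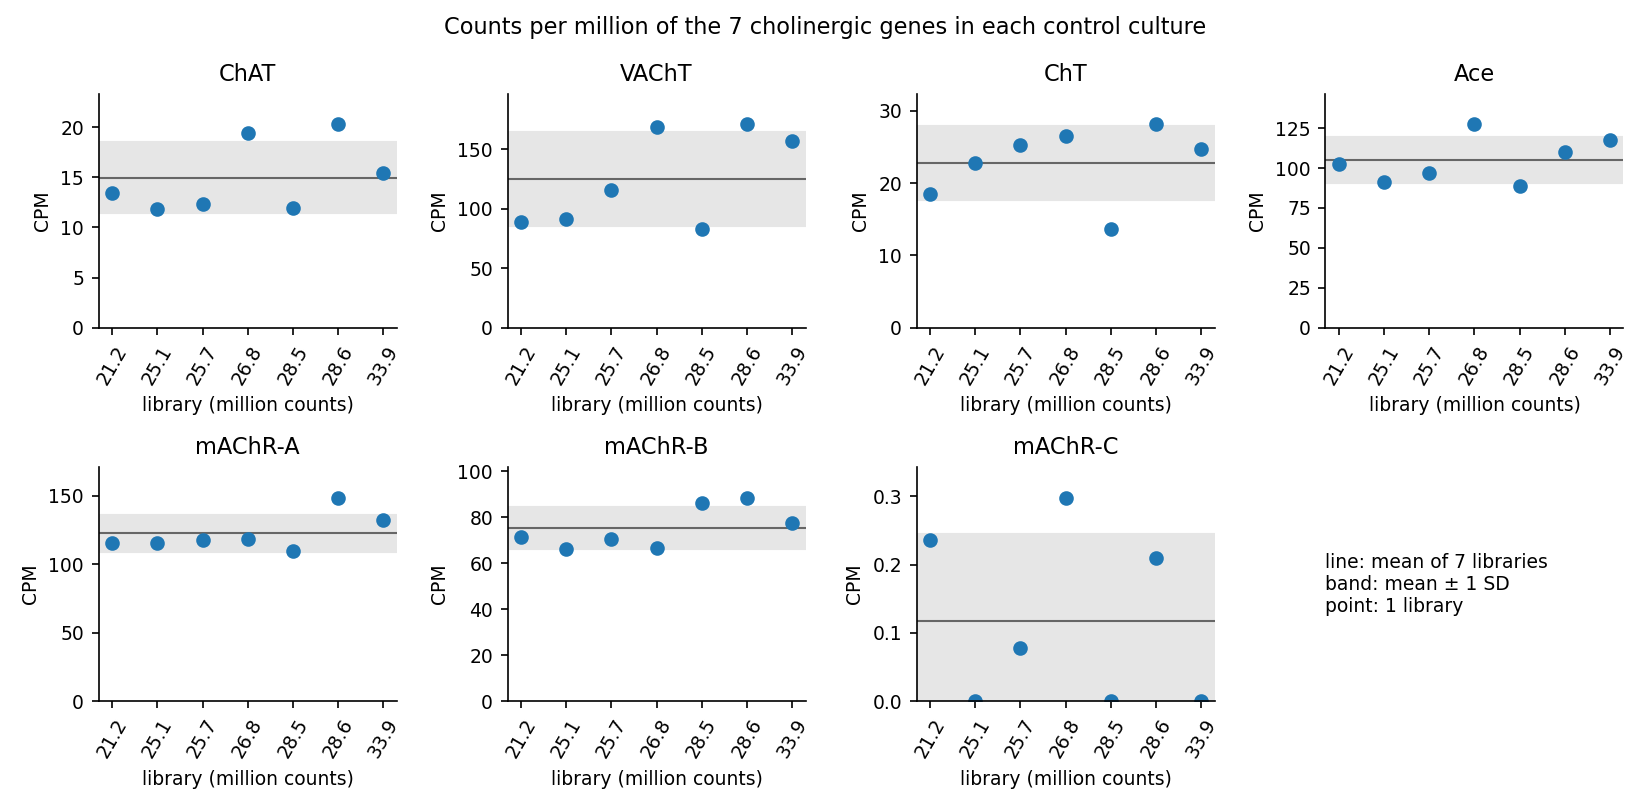
CPM of each of the 7 genes in the 7 control cultures, ordered by library total in units of 1000000 counts, with the mean (line) and ± 1 SD (band). VAChT was at 157 CPM or above in 3 libraries and at 116 CPM or below in 4, and mAChR-C stayed at 0.3 CPM or below.

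Levels of different genes were compared per kilobase of exon. On all annotated exon bases, mAChR-A was highest at 22.6 ± 2.50 CPM per kb, followed by VAChT at 17.6 ± 5.58, mAChR-B at 15.6 ± 1.88, Ace at 12.4 ± 1.69, ChT at 4.80 ± 1.07 and ChAT at 3.73 ± 0.889 CPM per kb (SD, n = 7 each). The median of all detected genes was 12.5 CPM per kb, which Ace nearly matched. mAChR-C came last at 0.0963 ± 0.105 CPM per kb, from counts at the limit of detection. Neighbours in this order were tested by their log2 ratio within each library, in a two-sided exact sign-flip permutation test adjusted by Benjamini-Hochberg over the 6 neighbouring pairs. mAChR-A over VAChT was 0.41 on the log2 scale and higher in 6 of 7 libraries (exact adjusted p = 0.0375). VAChT over mAChR-B was 0.12, higher in 4 of 7 libraries, and did not differ beyond its spread (SD 0.48, exact adjusted p = 0.547). mAChR-B over Ace was 0.34 and higher in 6 of 7 libraries, and ChT over ChAT was 0.36 and higher in 6 of 7 libraries (exact adjusted p = 0.0375 for both). With 6 libraries the smallest p of this test is 0.0312. A pair at that value passed after adjustment only if enough other pairs also reached it. ChT over ChAT missed the threshold whichever library was left out. The other called pairs among detected genes missed it whichever was left out but 26.8 (exact adjusted p = 0.0625 or 0.075). Every ratio kept its sign, and with so few libraries these misses do not decide whether a ratio holds.

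The place of ChT in this order depended on which bases were taken as its length. On all exon bases Ace exceeded ChT by 1.39 on the log2 scale, in 7 of 7 libraries (exact adjusted p = 0.0375). On exon bases that no other gene shares, a length chosen after seeing the data, ChT was at 15.7 ± 3.52 CPM per kb and Ace at 12.4 ± 1.69 CPM per kb, and Ace over ChT turned to -0.32 (exact adjusted p = 0.0703). ChT then stood next to mAChR-B at 15.6 ± 1.88 CPM per kb, and their log2 ratio was -0.02 with an SD of 0.44 (exact adjusted p = 0.969). ChT over ChAT was 1.84 on this length (exact adjusted p = 0.0469), compared with 0.36 on all exon bases. ChAT stayed the lowest of the detected members on either length, at 4.39 CPM per kb (SD 1.047, n = 7) on its own bases, and Ace over ChAT was 1.52 there, higher in 7 of 7 libraries (exact adjusted p = 0.0469). mAChR-A over VAChT was 0.32 on this length and no longer past the threshold (exact adjusted p = 0.0938).

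**Figure D3:**
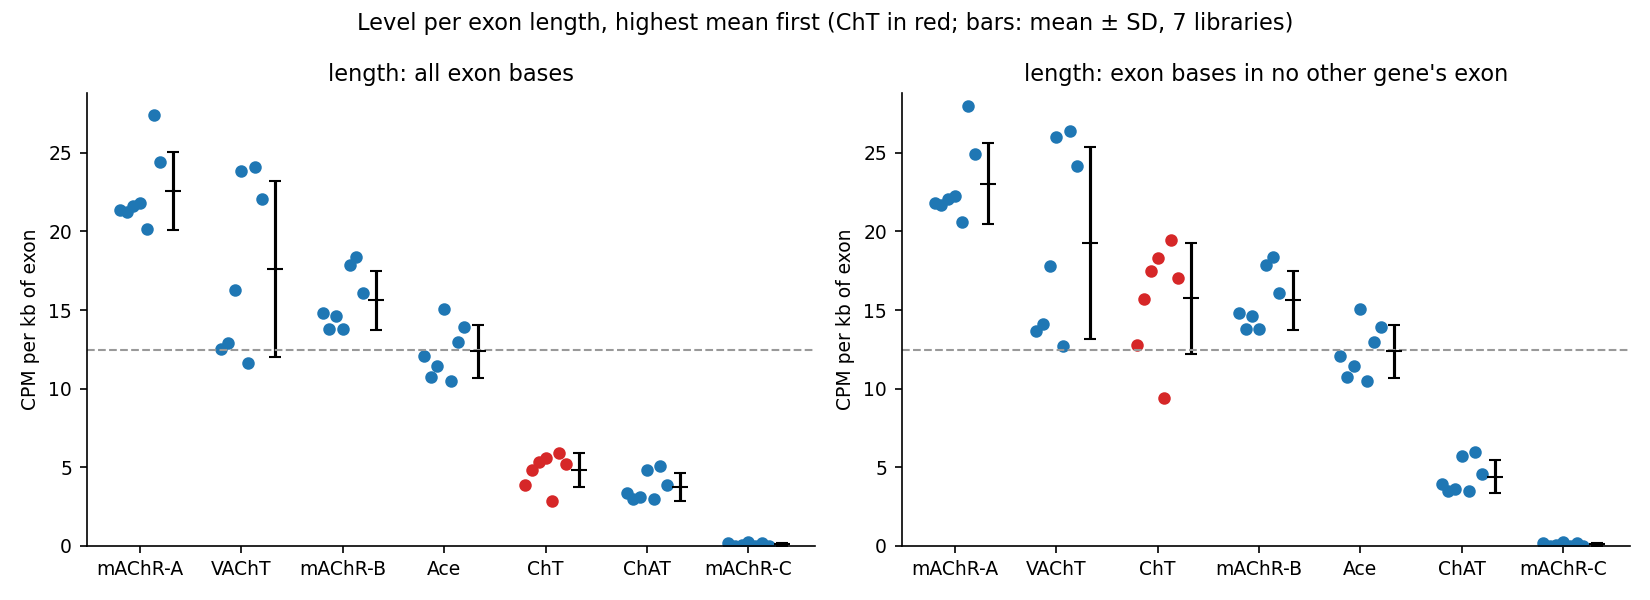
CPM per kb of exon of the 7 genes, 1 point per library, with mean ± SD beside them, over all exon bases (left) and over exon bases in no other gene's exon (right). The dashed line is the median of all detected genes over all exon bases, 12.5 CPM per kb, and ChT (red) averages 4.80 on the left and 15.7 on the right.

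The counts of the 2 genes that share the first exon were far from equal. The CPM ratio of VAChT to ChAT was 8.28 ± 1.29 (SD, n = 7). Per kilobase of their own exons, VAChT exceeded ChAT 4.34-fold ± 0.675, with 3.46, 4.05, 4.92, 4.58, 3.63, 4.42 and 5.33 in the order of libraries given above. The ratio was at least 3.46 in all 7 libraries and highest in library 33.9. The own exon of VAChT lies inside the first intron of ChAT on the same strand. Reads from unspliced ChAT RNA there would be counted for VAChT, and their share was not tested. Both ratios are therefore ratios of counts and not of spliced transcripts, and the same limit holds for every VAChT level given here. The annotated 3′ UTR is 4370 bases long in VAChT and 251 or 1417 bases in ChAT.

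The cholinergic genes also differed in how much they varied between cultures. The CV was 31.7% for VAChT, 23.8% for ChAT and 22.3% for ChT, compared with 13.7% for Ace, 12.0% for mAChR-B and 11.1% for mAChR-A. Counting alone gives 1.70% for VAChT, 4.94% for ChAT and 4.01% for ChT, so counting error is a small part of these values. Detected genes within 2-fold of VAChT in mean CPM had a median CV of 8.79%, those around ChAT 15.7% and those around ChT 13.3%. For Ace, mAChR-A and mAChR-B the medians of genes of like level were 8.96%, 8.81% and 9.51%. The median CV was 24.8% for marker genes of other transmitters, 15.5% for nicotinic receptor subunits and 6.89% for neuron markers. A CV like that of ChAT or ChT was thus also found outside the cholinergic genes. The biological coefficient of variation estimated by edgeR put the members in the same order as the CV at the upper end, with 0.238 for VAChT, 0.209 for ChAT and 0.206 for ChT, against 0.119 to 0.130 for the other 3.

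Members were then compared over libraries, with an exact permutation over all 5040 pairings of the libraries and adjustment over 21 pairs. Of these pairs 18 had a positive Pearson r, 6 had an unadjusted p below 0.05 and none passed after adjustment. VAChT and ChT had r = 0.82 and rho = 0.964 (exact p = 0.00437 and 0.00278, adjusted 0.0833 and 0.0583). VAChT and ChAT had r = 0.89 and rho = 0.821 (exact p = 0.0113 and 0.0341, adjusted 0.0833 and 0.102). VAChT and Ace had r = 0.87, and ChAT and Ace r = 0.85 (exact permutation adjusted p = 0.085 for both). VAChT and mAChR-A had r = 0.77 and rho = 0.929 (exact permutation adjusted p = 0.0833 and 0.0708). ChAT and mAChR-A had r = 0.74 (exact permutation adjusted p = 0.167). These 6 pairs kept r of 0.725 or above without libraries 26.8 and 28.6, the 2 that lay farthest from the median of ChAT and of VAChT. Without library 26.8 alone, VAChT had r = 0.86 with ChAT, 0.80 with ChT and 0.84 with Ace. With TMM scaling in place of library totals, VAChT and ChT alone passed (r = 0.83, exact permutation adjusted p = 0.00417). mAChR-B had r of 0.22 to ChAT, 0.11 to VAChT, -0.26 to ChT and -0.12 to Ace. These values depended on library 28.5, without which they were 0.54, 0.52, 0.39 and 0.21, and r was 0.63 to ChT without libraries 21.2 and 28.5 and 0.77 to Ace without libraries 26.8 and 28.5. Its r with mAChR-A, the other detected muscarinic receptor, was 0.49 (exact permutation adjusted p = 0.436), and single libraries set it: r was -0.083 without library 28.6 and 0.956 without library 28.5.

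**Figure D4:**
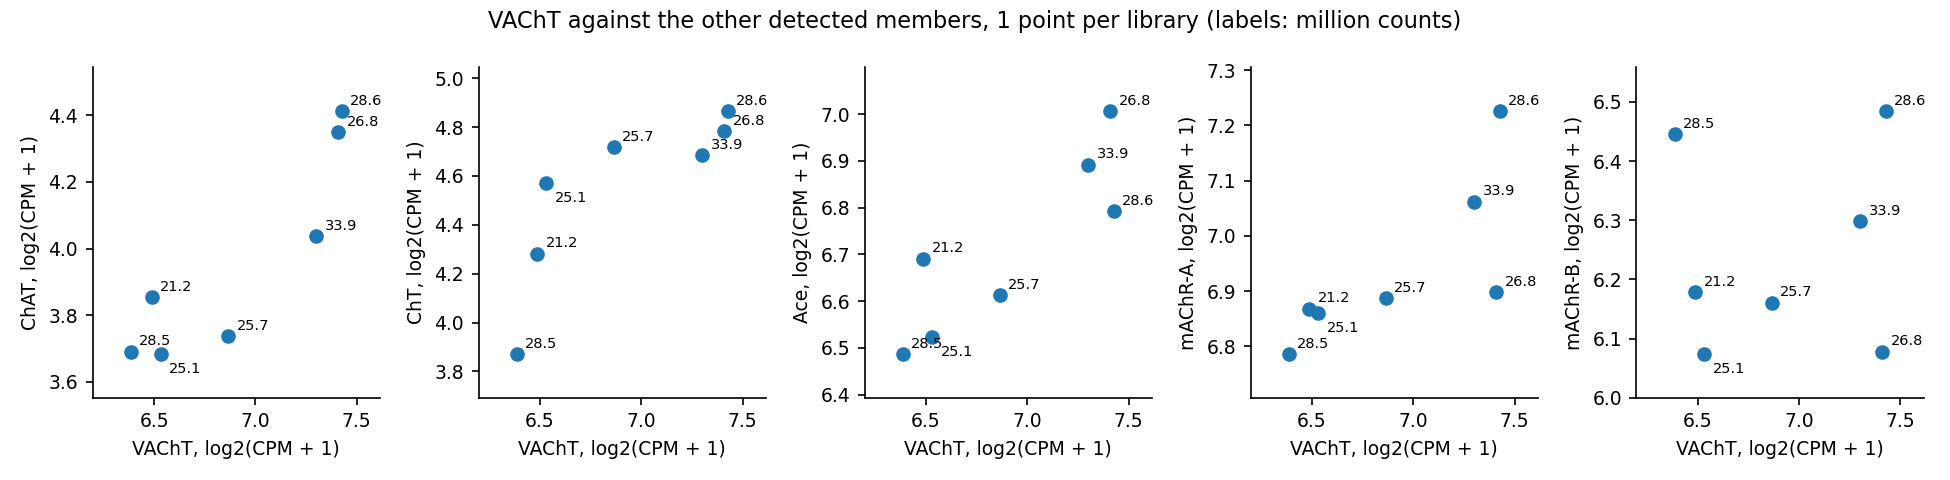
VAChT (x) against ChAT, ChT, Ace, mAChR-A and mAChR-B (y), each as log2(CPM + 1), 1 point per library labelled by its total in units of 1000000 counts. ChAT, ChT and Ace increase along VAChT (r = 0.89, 0.82 and 0.87), whereas mAChR-B has r = 0.11.

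Each member was also set against the mean log2(CPM + 1) of 5 marker lists, in 35 relations. None passed after adjustment, and 5 had an unadjusted exact permutation p below 0.05. mAChR-B with the neuroblast markers was the strongest at r = 0.86 (exact p = 0.00456, adjusted 0.16), and r was 0.52 without libraries 28.5 and 28.6. The genes of this list were split. Their r with mAChR-B was 0.89 for ase, 0.82 for wor, 0.78 for mira and 0.74 for dpn. It was 0.43 for stg, 0.13 for CycE, 0.002 for pros and -0.12 for insc. mAChR-A and ChT each had r = 0.82 with the neuron markers (exact permutation adjusted p = 0.247 for both), and without the 2 most distant libraries these were 0.92 and 0.54. Ace had r = 0.77 with the muscle and 0.75 with the photoreceptor markers (exact permutation adjusted p = 0.247 and 0.295), both of which were highest in library 26.8, where Ace was also highest. Without library 26.8 these were 0.51 and 0.48, and without both libraries 26.8 and 28.5 they were 0.987 and 0.89. Without library 28.5, 4 relations passed, those of Ace with muscle and photoreceptor markers (both r = 0.93) and of ChAT and mAChR-A with neuroblast markers (r = 0.81 and 0.93, exact permutation adjusted p = 0.0486 for all 4).

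The genes whose pattern over the 7 libraries was most like each member were taken by Pearson r of log2(CPM + 1) among the 9476 detected genes, as a description from 7 points that share the same libraries. For ChT the nearest gene was nAChRalpha3, a nicotinic receptor subunit (r = 0.99), followed by CG9992 and CG30116. For VAChT they were PVRAP, the otopetrin family member OtopLc and GluClalpha, the glutamate-gated chloride channel (all r = 0.98 or above). ChAT was nearest to the zinc finger factor klu (r = 0.99), CG5577 and the tachykinin receptor TkR99D. Ace was nearest to CG42258, the kinase PKD and CG8128, and mAChR-A to CG16798, CG8399 and the chitin synthase kkv. mAChR-B was nearest to asRNA:CR45889, Drsl6 and the RNA export factor Ref1, of which the first 2 were at 1.18 and 1.27 CPM. No gene was named for mAChR-C, which is below the count minimum.

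The nicotinic receptor subunits, the channels on which released acetylcholine acts fastest, were all detected, 10 of 10. They ranged per length of all exon bases between nAChRalpha2 at 41.8 ± 2.02 CPM per kb and nAChRbeta3 at 1.71 ± 0.375 CPM per kb. nAChRalpha7 and nAChRalpha1 lay near the upper end, at 38.4 ± 4.23 and 33.2 ± 3.35 CPM per kb. Over the libraries 9 of 10 subunits had a positive r with VAChT, with a median of 0.80, where the median of all detected genes was -0.10 and 44.3% were positive. Without library 26.8 the median of the subunits was 0.87, with 9 of 10 positive. The exception was nAChRbeta2, with r of -0.64. These values, and those for the lists that follow, describe 7 shared libraries and carry no test. With ChAT the median was 0.62, with ChT 0.80, with mAChR-A 0.73 and with mAChR-B -0.04. The median with mAChR-B depended on single libraries. It was 0.58 without library 28.5 (7 of 10 positive) and -0.31 without library 28.6 (1 of 10 positive). nAChRalpha5 had r = 0.90 with VAChT, and nAChRbeta1 r = 0.96 with ChT.

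The genes that build or tune cholinergic synapses did not share a direction. All 8 were detected, and their median r with VAChT was 0.16, with 4 positive and 4 negative, and 0.25 without library 26.8. acj6 and unc-4, transcription factors of cholinergic neurons, had r of 0.92 and 0.82 with VAChT at 2.26 ± 0.768 and 2.10 ± 0.713 CPM per kb. Hasp, a scaffold of the synaptic cleft, and qvr, a Ly6 protein that binds nicotinic receptors, had 0.79 and 0.89. hig, the cleft matrix protein that Hasp anchors, was the highest of the list at 147 ± 14.9 CPM per kb and had r = -0.74, and RIC-3, a chaperone of nicotinic receptors, had -0.79. unc-4 was the lowest of the list per length.

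Genes of choline supply and membrane choline turnover were also all detected, 7 of 7, with a median r of -0.33 with VAChT, or -0.51 without library 26.8. Pcyt1, the enzyme that commits phosphocholine to phosphatidylcholine synthesis, was highest at 55.5 ± 6.99 CPM per kb and ran opposite to VAChT (r = -0.97) and ChAT (r = -0.90). Pcyt2, which serves the ethanolamine branch, was lowest at 4.62 ± 1.00 CPM per kb and had r = 0.71 with VAChT. The choline transporter-like genes Ctl1 and Ctl2 had 55.7 ± 4.78 and 155 ± 12.3 CPM, with r of -0.33 and -0.63 with VAChT.

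Of the G proteins and effectors through which muscarinic receptors signal, 15 of 15 were detected. Ggamma1 was highest at 90.2 ± 10.1 CPM per kb and Galphaf lowest at 1.24 ± 0.508 CPM per kb. Galphaq, the partner of mAChR-A, was at 11.4 ± 1.36 CPM per kb, and Galphai, the partner of mAChR-B, at 7.72 ± 0.796 CPM per kb. 44.1% of the exon bases of Galphaq are shared with another gene on its strand, and over the rest it was at 20.5 ± 2.43 CPM per kb. Over the libraries, mAChR-A had r of 0.76 with Galphaq, 0.89 with Plc21C, the phospholipase C downstream of Gq, and 0.57 with Galphai. mAChR-B had r of 0.40 with Galphaq, 0.41 with Plc21C and 0.13 with Galphai, and VAChT, which is no receptor, had 0.74 with both Galphaq and Plc21C. The list as a whole had a median r of 0.16 with mAChR-A and -0.04 with mAChR-B, where all detected genes had -0.12 and -0.07. With VAChT the median of the list was 0.34, or 0.31 without library 26.8. loco, a regulator that speeds the switching off of G proteins, ran opposite to ChAT, VAChT and Ace (r = -0.91, -0.88 and -0.94).

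Marker genes of other transmitters were compared in the same way. All 10 were detected, and 9 had a positive r with VAChT, with a median of 0.84, or 0.82 without library 26.8, where all 10 were positive. VGlut, the vesicular glutamate transporter, had r = 0.95 with VAChT at 162 ± 37.9 CPM, and the dopamine transporter DAT had 0.94. Gad1 and VGAT, which make and load GABA, had 0.86 and 0.77. The exception was Trhn, the neuronal tryptophan hydroxylase of serotonin synthesis, which was the highest of the list at 374 ± 101 CPM per kb and had r = -0.03 with VAChT but 0.74 with mAChR-B. The lowest per length was Tdc2, at 2.43 ± 0.943 CPM per kb. Of the cell type markers, those of fat body and yolk had a median r of 0.71 with VAChT (5 of 5 positive), photoreceptor 0.63 (10 of 10), neuron 0.57 (8 of 8), muscle 0.47 (7 of 7), hemocyte 0.46 (3 of 3), glia 0.33 (7 of 8) and neuroblast 0.28 (6 of 8). Positive values were therefore also found outside the cholinergic genes and outside neurons. Without library 26.8 the medians were 0.64 for fat body and yolk, 0.48 for photoreceptor, 0.80 for neuron, 0.22 for muscle and 0.30 for neuroblast markers, and within 0.01 of 0 for hemocyte and glial markers.

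**Figure D5:**
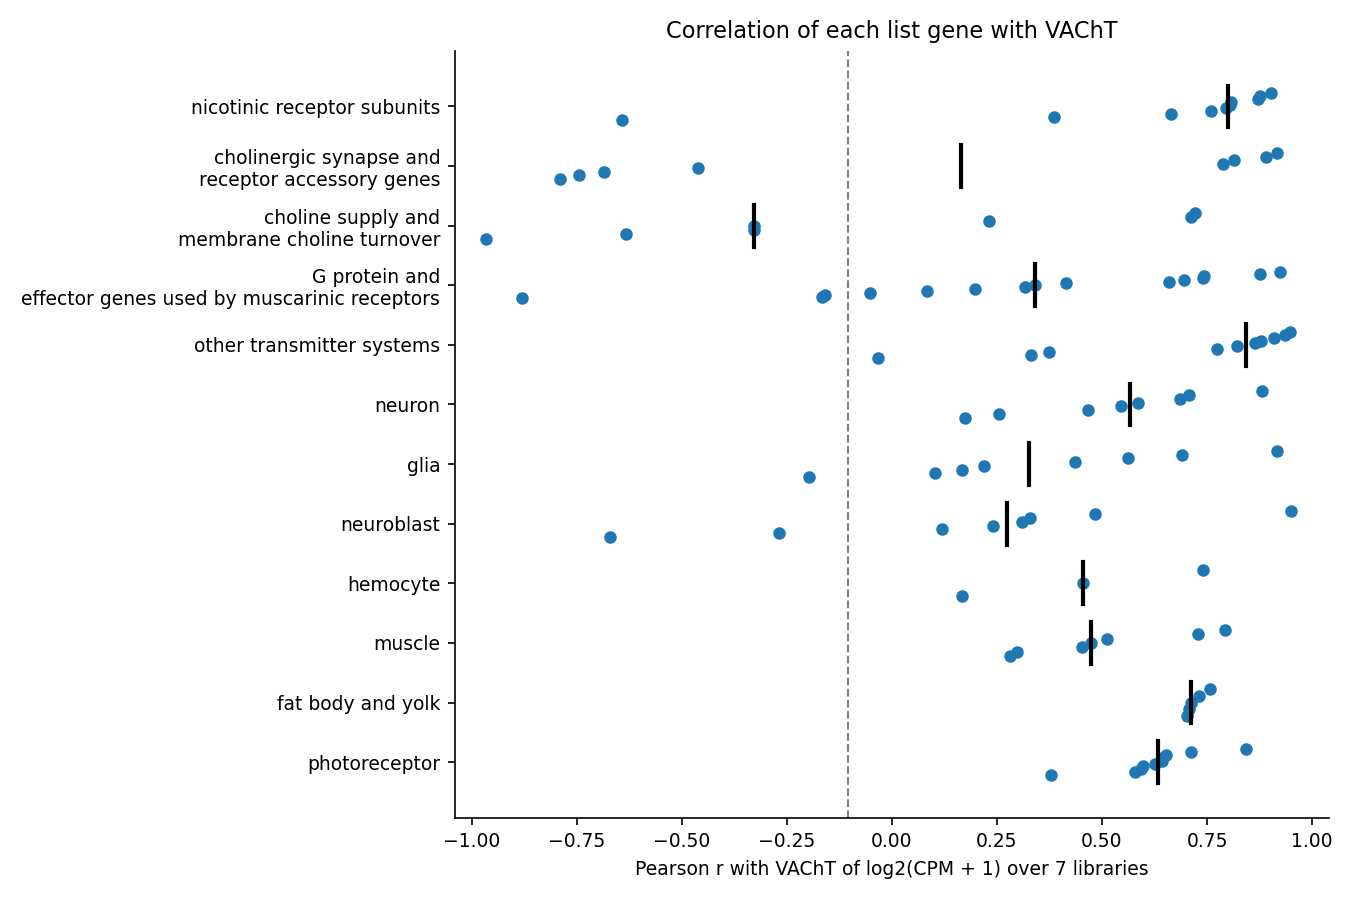
Pearson r with VAChT of log2(CPM + 1) over 7 libraries for each detected gene of 12 lists (points) and the list median (black bar). The dashed line is the median of all detected genes, -0.10, and the medians were 0.80 for nicotinic subunits, 0.84 for other transmitter systems, 0.71 for fat body and yolk and -0.33 for choline supply.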

How the data were processed

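RNA of 7 control cultures was sequenced with a stranded kit. The labels name a total RNA kit, and the study's figure caption for the control cultures also speaks of total RNA-seq. The methods name an mRNA kit and the data statement mRNA-seq, and which was used could not be settled. The deposited values are whole-number counts of reads per gene that the authors made with featureCounts, neither normalized nor pooled, with dm6 as the build in the submitters' processing notes. The aligner, the annotation and the counting options of this table are not stated in labels or methods. A column names its condition, but no column was tied to a particular culture number. 8 other per-sample columns, named for another genotype, were not used. All rows name a gene, and 17626 of 17753 identifiers had a symbol.

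Depth was 21178515 to 33891136 counts per library. Library pairs differed by more than counting noise (chi-square per degree of freedom 18.7 to 74.1), so none was treated as the same library deposited again. That the cultures are separate rests on the labels and on the study's figure caption, which calls the control cultures biological replicates. From the deposited counts, CPM were taken by library total and log2 values with a pseudocount of 1 CPM. Exon lengths and coordinates came from Ensembl 115 (BDGP6.54, which keeps dm6 coordinates). Exact permutation tests and Benjamini-Hochberg adjustment used Python 3.11.15, numpy 2.4.6 and scipy 1.17.1. edgeR 4.0.16 (TMM, biological coefficient of variation) and DESeq2 1.42.0 (size factors) served scaling and spread. Scripts were tested on simulated data.

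Named genes were the 7 members, the 3 nearest genes of each detected member by r, and, of 12 lists (106 genes), the highest, the lowest and those a result turned on. Levels per length set the highest and lowest. The members and lists were chosen with earlier results of these data known. The symbols of 4 list genes were matched, and the length without shared bases and the scale without logarithm added, after seeing the data. Alternatives were 3 other scalings, other lengths, a pseudocount of 0.1 CPM, other detection limits and each library left out.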

Additional observations from a re-analysis of the deposited data

Results flagged for a closer look

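Of 18 measures over the 7 libraries, 3 had a library far from the other 6 by Dixon's criterion, which chance alone gives in about 1 group of 20. The CPM ratio of mAChR-A to mAChR-B was 1.27 in library 28.5, where the others lay between 1.62 and 1.78. In that library mAChR-A was the lowest of all (109 CPM) and mAChR-B the second highest (86.1 CPM). The mean log2(CPM + 1) of the hemocyte markers was 2.44 in library 26.8, where the others lay between 1.64 and 1.96, and that of the muscle markers was 4.57 there, where the others lay between 2.73 and 3.49. None of the 7 cholinergic genes had such a library in its own CPM.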

How the results depend on the processing

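No paired analysis was possible because every library belongs to a single condition. Library totals without Arc1, which took 11.5% to 15.0% of the counts, raised every member. ChAT went from 14.9 to 17.3 CPM and VAChT from 125 to 145 CPM. Only Ace at 121, mAChR-A at 142 and mAChR-B at 87.1 CPM moved by more than 1 SD, their SD being smaller relative to the mean. All 67 other values of the level of a member stayed within 1 SD. The CV ranged from 13.9% to 24.5% for ChT and from 6.58% to 11.9% for mAChR-A when each library was left out. With 6 libraries the sign-flip test cannot go below 0.0312 before adjustment. Without each library in turn, the log2 ratio of levels per kb ranged from 0.35 to 0.50 for mAChR-A over VAChT, 0.27 to 0.42 for mAChR-B over Ace, 1.31 to 1.44 for Ace over ChT, 0.29 to 0.43 for ChT over ChAT, and 4.72 to 4.99 for ChAT over mAChR-C (counts under 3 set to 3). mAChR-B over Ace was 0.25 (exact permutation adjusted p = 0.075) on the longest transcript. On unshared exon bases, mAChR-A over VAChT was 0.32 and mAChR-B over Ace 0.34 (exact permutation adjusted p = 0.0625), both no longer past the threshold. Ace over ChT reversed to -0.32 and ChT over ChAT rose to 1.84, since the length of ChT becomes 1449 bases. Of member pairs, 1 passed (VAChT and ChT) with TMM scaling (r = 0.83, exact permutation adjusted p = 0.00417), with DESeq2 size factors (r = 0.83, exact permutation adjusted p = 0.00417), with totals without Arc1 (r = 0.83, exact permutation adjusted p = 0.0458) and without library 25.7 (r = 0.85, exact permutation adjusted p = 0.0292), where none passed otherwise; the count ranged from 0 to 1. The number of marker relations that passed ranged from 0 to 4, with 1 (mAChR-B with neuroblast markers) without library 26.8. The r of mAChR-A and mAChR-B, 0.49 over all 7 libraries, ranged from -0.083 without library 28.6 to 0.956 without library 28.5, and the cause was not tested. Detection of 6 members held at all 3 other limits. The depth limits mAChR-C, whose 21 counts give no usable spread.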
